A study of Mus musculus with 6 samples.

Results

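Genes that build the cleavage furrow, cut the last bridge between daughter cells and copy the centrosome were compared between tetraploid and diploid mouse hepatocytes. The set was a fixed list of 52 genes, and a gene was measured where the platform annotation tied at least 1 probe set to its symbol alone. A total of 40 of the 52 genes had such a probe set, among 12393 genes in all, and 37 of them were bright enough to enter the test, among 9295 genes tested. Cep164, Cep290 and Nin were among the dim genes left out of the test. Kif14, Kif20b, Cdca8, Myh10, Cenpj, Cep63, Cep97, Cep120, Cep135, Cep192, Pcnt and Ninl had no probe set of their own and were not analysed here. Diaph1 and Diaph3 are the current symbols of Diap1 and Diap3.

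The tetraploid group and the diploid group each held 3 arrays of primary hepatocytes from wild type C57BL/6 mice aged 3 weeks. The cells of every group had been stained with Hoechst 33342, a DNA dye, and sorted by flow cytometry, and RNA was extracted straight after the sort. Replicates were labelled biological, with no statement on separate animals, so the tests reflect only how these arrays vary, and that variation may be technical. A diploid cell that has copied its DNA and not yet divided holds as much DNA as a resting tetraploid cell, so the tetraploid fraction can include such cells, and their share was not given.

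Hepatocytes become polyploid around weaning, when some cells enter mitosis and separate their chromosomes but do not complete cytokinesis. In a complete division, the central spindle between the separating chromosomes activates the small GTPase RhoA, an actomyosin ring closes the furrow, and the ESCRT machinery severs the midbody. A cell that skips these steps keeps a doubled genome and a doubled set of centrosomes, which are otherwise copied once per cycle by a pathway under the kinase Plk4. Most genes of the furrow are transcribed late in the cell cycle, through promoter elements known as CHR (cell cycle genes homology region) and CCAAT boxes, whereas most ESCRT genes are expressed in resting cells too, since ESCRT also sorts membrane proteins in endosomes.

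Promoter sequences of the furrow genes and the ESCRT genes differed in how often they held these letters. RefSeq promoters of build GRCm38.p6, each spanning 250 bases before to 50 after an annotated start, were found for 40 of the 52 genes in 48 windows. These were not the same 40 genes as those with a probe set. Aurkb, Incenp, Kif20a and Diaph1 had no promoter here, while windows of the unmeasured Kif14, Kif20b, Cdca8 and Myh10 are counted. The CHR letters TTTGAA or TTTAAA, searched on both strands, occurred in 11 of 14 windows of central spindle, passenger complex and contractile ring genes (78.6%). They occurred in 3 of 9 windows of midbody and ESCRT genes (33.3%) and in 27.6% of all 32851 windows. CCAAT, also searched on both strands, was in 11 of those 14 furrow windows (78.6%), in 0 of the 9 midbody and ESCRT windows and in 37.4% of all windows. Of the contractile ring genes with windows, only Anln held the CHR letters, only Diaph3 and Myh10 held CCAAT, and Cit held neither. An E2F-type motif, searched on both strands as TTGGCGC and also with the variant forms TTCCCGC or else TTCGCGC or otherwise TTGCCGC, none of which contains the letters of the other motifs, was in 2 of the 14 furrow windows (14.3%), in 2 of the 9 midbody and ESCRT windows (22.2%) and in 9.57% of all windows. In the 25 windows of centriole and centrosome genes, the shares were 44.0% for the CHR letters, 60.0% for CCAAT and 28.0% for the E2F-type motif. A gene with several annotated starts, such as Ect2 or Prc1, has several windows. A match of letters is a description of the sequence and not evidence of binding.

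The stretches below hold 100 bases each around the annotated start, of which the last 30 follow it. The first 5 belong to genes that were highest on the same array of each fraction, tetraploid replicate 2 and diploid replicate 3, and their capitals mark TTTGAA or CCAAT letters on either strand. The last 2 belong to abscission genes whose levels were nearly constant within each fraction, and their capitals mark an E2F-type match. These stretches are picked examples, and whether motifs go with array patterns was not tested. Diaph3, highest on the same arrays as the first 5, held no CHR letters. Ect2, also highest on those arrays, held an E2F-type match as well, and Pdcd6ip, which varied little, held TTTGAA.
Racgap1, chr15:99651627-99651726, minus strand: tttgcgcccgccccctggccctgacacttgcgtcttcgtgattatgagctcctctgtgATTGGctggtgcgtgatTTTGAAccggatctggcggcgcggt
Prc1, chr7:80294381-80294480, plus strand: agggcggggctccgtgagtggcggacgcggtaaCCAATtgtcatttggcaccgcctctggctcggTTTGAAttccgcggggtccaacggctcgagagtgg
Kif23, chr9:61946770-61946869, minus strand: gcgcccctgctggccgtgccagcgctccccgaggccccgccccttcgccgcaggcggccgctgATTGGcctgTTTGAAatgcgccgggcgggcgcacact
Anln, chr9:22389177-22389276, minus strand: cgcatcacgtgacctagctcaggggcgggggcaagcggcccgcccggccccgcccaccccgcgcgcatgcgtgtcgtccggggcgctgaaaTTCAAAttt
Cep55, chr19:38054971-38055070, plus strand: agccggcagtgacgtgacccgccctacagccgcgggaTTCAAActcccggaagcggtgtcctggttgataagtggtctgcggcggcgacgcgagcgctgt
Spast, chr17:74338917-74339016, plus strand: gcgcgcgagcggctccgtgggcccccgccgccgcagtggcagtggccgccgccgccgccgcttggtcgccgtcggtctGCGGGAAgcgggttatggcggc
Tsg101, chr7:46919940-46920039, minus strand: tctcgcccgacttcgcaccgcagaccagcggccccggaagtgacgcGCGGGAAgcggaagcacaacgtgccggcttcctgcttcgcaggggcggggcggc
In Prc1, Racgap1 and Kif23 a CCAAT box or its complement ATTGG lies a short way upstream of TTTGAA near the start.

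The 37 tested genes together were little different between tetraploid and diploid hepatocytes. Values are log2 intensities, differences are tetraploid minus diploid, and RMA had scaled the arrays to one another, so a difference says how a gene stood among the transcripts of its sample and not how much RNA a cell held. On average 12 genes were higher and 25 lower in the tetraploid fraction, so 67.6% were lower, beside 52.2% of all genes. Chmp4c and Stil passed the filter on dim genes only through the fraction where each was high, so these counts are a description. The median difference was -0.03 beside -0.006 over all 9295 genes. By limma with Benjamini-Hochberg adjustment over all genes, 0 of the 37 passed an adjusted p of 0.05, and 0% of all genes did. At an unadjusted p under 0.05, Chmp4c and Spast were higher in tetraploid cells, 2 of 37 or 5.41% beside 2.32% of all genes. Chmp4c passed the filter on dim genes only through its tetraploid arrays, so this share is a description and supports nothing. Tubg1 and Cep152 were lower, also 5.41%, beside 3.85% of all genes.

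The same 4 genes were the tested ones whose fractions did not overlap, where 5.22% of all genes lay wholly higher and 7.08% wholly lower in tetraploid cells. The shares among the 37 genes were thus near the background for groups that do not overlap. The 95% interval of the difference lay within a 2-fold change in either direction for all 37 genes and within a 1.5-fold change for 24 of them. Single arrays set the list of lower genes at an unadjusted p under 0.05. Without diploid replicate 1 there were 0. Without tetraploid replicate 1 they were Plk4 and Tubg1, so the call of Cep152 was lost, and without diploid replicate 3 they were Cep152, Cntrob and Tubg1. Without tetraploid replicate 3 there was 1, Tubg1, and without tetraploid replicate 2 there were 4, Anln, Aurkb, Cep152 and Diaph3. Without diploid replicate 2 there were also 4, Aurkb, Diaph3, Incenp and Tubgcp2. On the higher side only Chmp4c was left without diploid replicate 3, and Cetn3 joined both genes without tetraploid replicate 3. Calls over all genes at that limma level, in either direction, changed as well, from 574 with all arrays. They numbered 478, 469 and 575 without tetraploid replicates 1 to 3, and 378, 639 and 552 without diploid replicates 1 to 3. Shifts in the number of calls were thus not limited to the 37 genes.

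**Figure D1:**
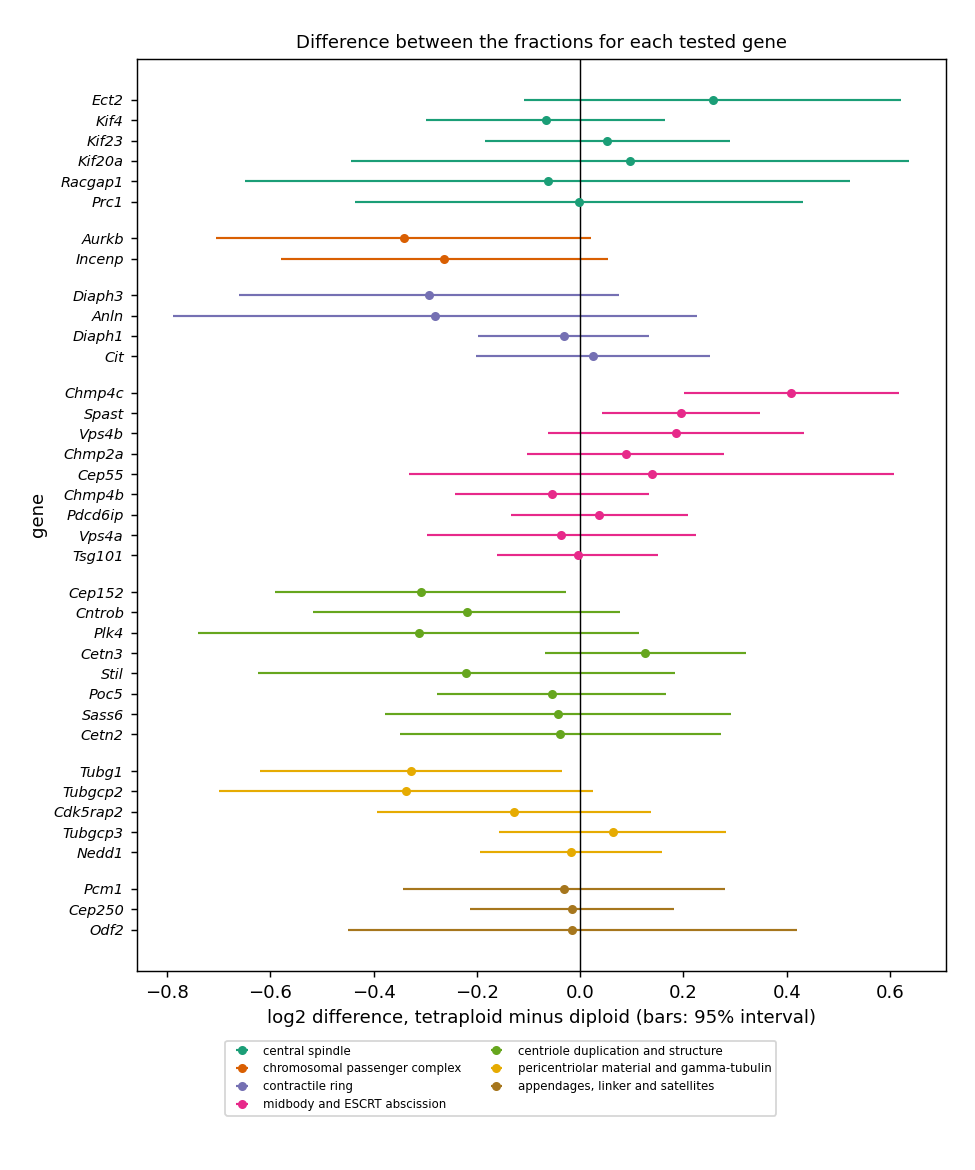
Log2 difference, tetraploid minus diploid (horizontal axis), for the 37 tested genes, grouped and coloured by role, with bars for the 95% interval of the limma fit on 3 arrays per fraction. The intervals of Chmp4c and Spast lie above 0, those of Tubg1 and Cep152 lie below 0, and all others include 0.

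Central spindle genes showed wide swings between arrays of the same fraction and no separation of the fractions. Of 8 listed genes 6 were tested, 3 higher and 3 lower on average, with a median difference of 0.03, and 0 reached an unadjusted p under 0.05. Racgap1, the GTPase-activating subunit of centralspindlin, was at 6.73, 7.60 and 6.93 on tetraploid replicates 1 to 3, against 7.11, 6.83 and 7.52 on diploid replicates 1 to 3. The fractions overlapped over nearly their whole range, and the difference was -0.06 ± 0.25 (SE, n = 3 per fraction). Kif23, the kinesin subunit of centralspindlin, was at 6.43, 6.47 and 6.32 in tetraploid cells, against 6.18, 6.36 and 6.52 in diploid cells, and differed by 0.05 ± 0.10.

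Prc1, which bundles the antiparallel microtubules of the central spindle, was at 7.81, 8.16 and 7.59 on the tetraploid arrays, against 8.02, 7.51 and 8.03 on the diploid arrays. Its highest and next highest values came from different fractions, and its difference was -0.002 ± 0.19. Ect2, the exchange factor that activates RhoA at the furrow, was the member of this role with the smallest p. It was at 8.12, 8.43 and 8.01 in tetraploid cells, against 7.64, 8.03 and 8.12 in diploid cells, a difference of 0.26 ± 0.16 with a 95% interval of -0.11 to 0.62. The difference was 0.11 without diploid replicate 1 and 0.13 without tetraploid replicate 2. The lowest array for Ect2 was diploid replicate 1, and the remaining diploid values lay within the tetraploid range. Kif4, a chromosome-bound kinesin that shortens spindle overlaps with Prc1, was at 6.15, 6.00 and 6.04 in tetraploid cells, against 6.32, 6.01 and 6.07 in diploid cells, and differed by -0.07 ± 0.10. Kif20a, the kinesin that brings Aurora B to the central spindle, differed by 0.10 ± 0.23 and ranged over 0.73 among the tetraploid arrays and 0.61 among the diploid arrays.

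Both measured subunits of the chromosomal passenger complex, which corrects attachments at centromeres and then moves to the central spindle, had lower means in tetraploid cells without passing the test. Aurkb, the Aurora B kinase, was at 6.36, 6.65 and 6.29 on the tetraploid arrays, against 6.79, 6.49 and 7.04 on the diploid arrays. Only diploid replicate 2 fell among the tetraploid values. The difference was -0.34 ± 0.16 (SE, n = 3 per fraction), with an unadjusted limma p of 0.0619 and an adjusted p of 0.810. Without diploid replicate 3 the difference was -0.21. A dimmer probe set gave -0.35, and both are of designs that can match other transcripts. Incenp, the scaffold that binds and activates Aurora B, was at 7.40, 7.41 and 7.24 in tetraploid cells, against 7.76, 7.30 and 7.77 in diploid cells. Diploid replicate 2 again lay within the tetraploid range, and the difference was -0.26 ± 0.14. It was -0.42 without diploid replicate 2. Another probe set gave -0.17 and kept the fractions apart, and the remaining one gave -0.19 with overlap. Birc5, the passenger subunit survivin, is counted among the other cytokinesis genes below.

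Among contractile ring genes, Anln and Diaph3 had lower means in tetraploid cells, and Diaph1 and Cit were close to equal. The median difference of the 4 tested genes was -0.16, with 0 at an unadjusted p under 0.05. Anln encodes anillin, the scaffold that links RhoA, actin, myosin and septins. It was at 6.83, 7.52 and 6.82 on the tetraploid arrays, against 7.21, 7.15 and 7.65 on the diploid arrays, a difference of -0.28 ± 0.22. A single tetraploid array, replicate 2, stood above the lowest diploid values, and without it the difference was -0.52. Without diploid replicate 3 it was -0.12, without tetraploid replicate 3 it was -0.16, and without tetraploid replicate 1 it was -0.17. Diaph3, a formin that nucleates actin filaments of the ring, was at 5.66, 5.87 and 5.41 in tetraploid cells, against 5.94, 5.68 and 6.19 in diploid cells, and differed by -0.29 ± 0.16. Its difference was -0.17 without diploid replicate 3 and also without tetraploid replicate 3.

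Diaph1, a related formin with functions in resting cells, differed by -0.03 ± 0.07 and varied by only 0.13 among the tetraploid arrays and 0.04 among the diploid arrays. Cit, the citron kinase of the midbody ring, differed by 0.02 ± 0.10. Another probe set for Diaph1 differed by 0.06, so the sign of its difference was not settled.

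Genes of the midbody and of ESCRT abscission included the smallest p-value of the set, that of Chmp4c, which was higher in tetraploid cells but not past the adjusted threshold. All 9 listed genes were tested, 6 higher and 3 lower on average, with a median difference of 0.09. Thus 33.3% had a lower mean, beside 52.2% of all genes. Chmp4c, among the 6, passed the filter on dim genes only through its tetraploid arrays, so the count and median support nothing. Chmp4c encodes the ESCRT-III subunit that, in human cells, Aurora B phosphorylates to delay abscission while chromatin remains in the bridge. It was at 5.23, 5.49 and 5.29 on the tetraploid arrays, against 4.89, 4.98 and 4.91 on the diploid arrays. Every tetraploid array lay above every diploid array, by at least the gap between 5.23 and 4.98. The difference was 0.41 ± 0.09 (SE, n = 3 per fraction), a 1.33-fold higher level, with a 95% interval of 0.20 to 0.62, an unadjusted limma p of 0.00209 and an adjusted p of 0.356.

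The diploid mean of Chmp4c was below the log2 level of 5.06 under which genes were left out, at 5.34 in tetraploid and 4.93 in diploid cells, so the gene entered the test through the fraction where it was high. With no filter on dim genes it was also at an unadjusted p under 0.05. With 32 added to each intensity before the log, its difference was 0.21. A dimmer probe set for Chmp4c, at a mean of 3.90, differed by 0.09 with overlapping fractions. Spast encodes spastin, the ATPase that severs midbody microtubules before the final cut. It was at 8.65, 8.61 and 8.62 in tetraploid cells, against 8.44, 8.46 and 8.39 in diploid cells, and the fractions did not overlap. The difference was 0.20 ± 0.07, a 1.15-fold higher level, with an unadjusted limma p of 0.0190 and an adjusted p of 0.757. A further probe set of nearly the same brightness differed by 0.12, with overlapping fractions. When all probe sets of a gene were averaged, Spast did not reach an unadjusted p under 0.05, and Chmp4c fell among the dim genes.

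Chmp4b, the main polymer-forming ESCRT-III subunit, was at 10.76, 10.63 and 10.73 on the tetraploid arrays, against 10.85, 10.77 and 10.66 on the diploid arrays. Its difference of -0.05 ± 0.08 had a 95% interval of -0.24 to 0.13. Its other probe set differed by 0.06, so no direction can be given. Cep55, which recruits ESCRT to the midbody, behaved unlike the other genes of this role and swung with the central spindle genes. It was at 6.26, 6.68 and 6.16 in tetraploid cells, against 6.30, 5.84 and 6.54 in diploid cells, a difference of 0.14 ± 0.20.

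The other abscission genes had small mean differences. Tsg101, the ESCRT-I subunit that Cep55 binds, ran from 8.73 to 8.80 on the tetraploid arrays and from 8.75 to 8.80 on the diploid arrays, and differed by -0.005 ± 0.07. Pdcd6ip encodes ALIX, the other partner of Cep55, and differed by 0.04 ± 0.07. Its 4 other probe sets were also higher on average, by 0.08, 0.10, 0.16 and 0.45. The ATPases that take ESCRT-III filaments apart, Vps4b and Vps4a, differed by 0.19 ± 0.11 and -0.04 ± 0.11, and the ESCRT-III subunit Chmp2a by 0.09 ± 0.08.

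**Figure D2:**
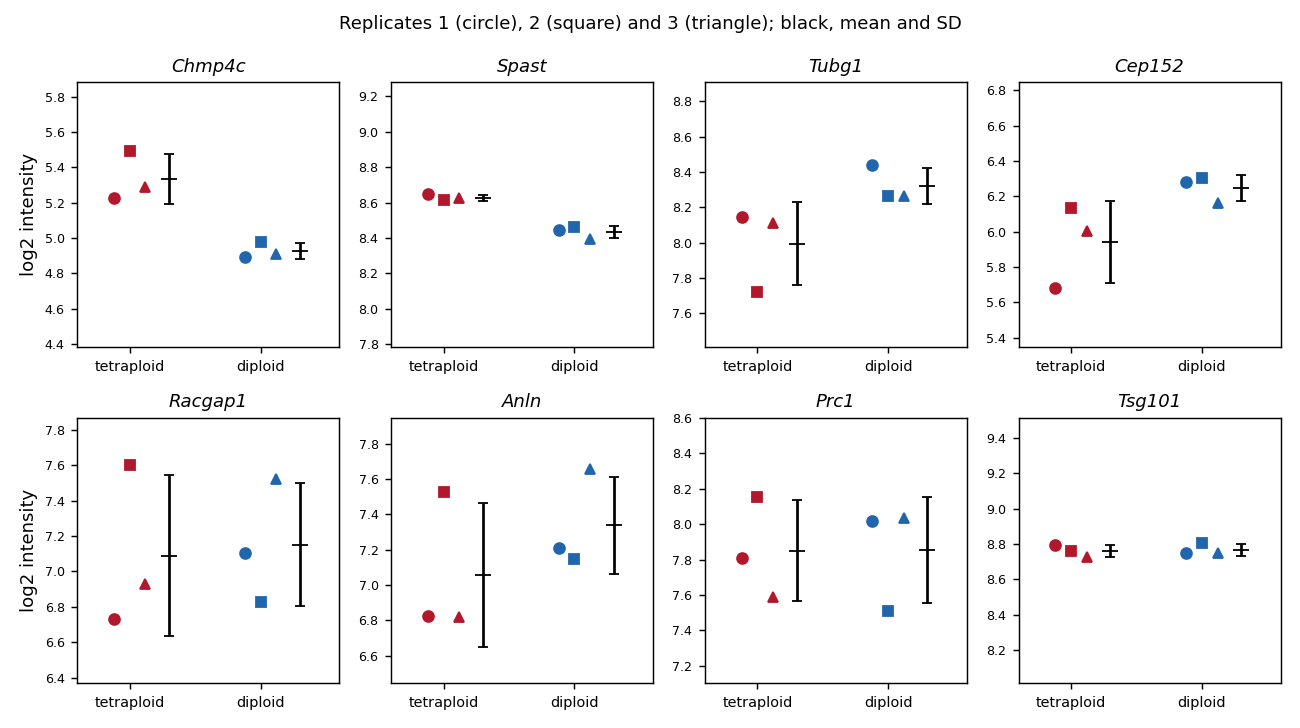
Log2 intensity (vertical axis, the same span in every panel) of 8 genes on the 3 tetraploid and 3 diploid arrays, with a marker shape for each replicate number and the mean and SD in black. Chmp4c and Spast lie wholly higher and Tubg1 and Cep152 wholly lower in tetraploid cells, Racgap1, Anln and Prc1 spread widely within each fraction, and Tsg101 is nearly flat.

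Most tested genes of centriole duplication and structure had lower means in tetraploid cells. Of 14 listed genes 8 were tested, and 7 of these had a lower mean, with a median difference of -0.14. Stil, among those 7, passed the filter on dim genes only through its diploid arrays, with means of 5.03 in tetraploid and 5.25 in diploid cells, so the count supports nothing. Across all genes, 52.2% had a lower mean. Cep152, the scaffold that brings Plk4 to the mother centriole, was at 5.68, 6.13 and 6.01 on the tetraploid arrays, against 6.28, 6.30 and 6.16 on the diploid arrays. The fractions did not overlap, and tetraploid replicate 2, at 6.13, came close to diploid replicate 3, at 6.16. The difference was -0.31 ± 0.12, a 0.807-fold level, with an unadjusted limma p of 0.0356 and an adjusted p of 0.779. It was -0.18 without tetraploid replicate 1, where the unadjusted call was lost. That call was also lost without tetraploid replicate 3, diploid replicate 1 or diploid replicate 2.

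Plk4, the kinase that starts centriole duplication, was at 7.04, 6.84 and 6.37 in tetraploid cells, against 6.97, 6.91 and 7.30 in diploid cells. Tetraploid replicate 1 was above 2 of the diploid arrays, and tetraploid replicate 3 was the lowest array. The difference was -0.31 ± 0.18, and it was -0.12 without tetraploid replicate 3 and -0.19 without diploid replicate 3. The other probe sets for Plk4 differed by -0.32 and -0.24, and in both the fractions did not overlap. With all its probe sets averaged, Plk4 reached an unadjusted p under 0.05 on the lower side. Stil, which Plk4 phosphorylates to start a new centriole, was at 5.33, 5.02 and 4.75 in tetraploid cells, against 5.06, 5.17 and 5.53 in diploid cells, and differed by -0.22 ± 0.17. Its difference was -0.08 without tetraploid replicate 3 and also without diploid replicate 3, and -0.37 without tetraploid replicate 1. Sass6, which builds the cartwheel of the new centriole, was at 6.24, 6.13 and 6.35 in tetraploid cells, against 6.16, 6.08 and 6.61 in diploid cells, and differed by -0.04 ± 0.14. For Plk4, Stil and Sass6 the highest of the diploid arrays was replicate 3.

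Cntrob encodes centrobin, a protein of the daughter centriole, and was at 7.33, 7.16 and 7.39 in tetraploid cells, against 7.76, 7.48 and 7.30 in diploid cells. Its difference of -0.22 ± 0.13 was -0.10 without diploid replicate 1, the highest array. The centrins, small calcium-binding proteins of the centriole lumen, had small mean differences. Cetn3 was at 9.71, 9.64 and 9.47 on the tetraploid arrays, against 9.45, 9.48 and 9.50 on the diploid arrays, a difference of 0.13 ± 0.08 that was 0.07 without tetraploid replicate 1 and 0.20 without tetraploid replicate 3. Cetn2 was at 9.81, 9.36 and 9.72 in tetraploid cells, against 9.63, 9.83 and 9.55 in diploid cells, and differed by -0.04 ± 0.13, with 0.06 for its other probe set, so its direction was not settled. Poc5, a centrin-binding protein of the distal centriole, differed by -0.05 ± 0.10.

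In the pericentriolar material, Tubg1 and Tubgcp2, which belong to the complex that nucleates microtubules, had the largest mean differences. Of 5 tested genes 4 had a lower mean in tetraploid cells, with a median difference of -0.13. That median was -0.21 without diploid replicate 2 and -0.0077 without diploid replicate 3. Tubg1, the gamma-tubulin gene itself, was at 8.14, 7.72 and 8.11 on the tetraploid arrays, against 8.44, 8.26 and 8.26 on the diploid arrays. Every tetraploid array was below every diploid array, and tetraploid replicate 2 was the lowest. The difference was -0.33 ± 0.13, a 0.797-fold level, with an unadjusted limma p of 0.0330 and an adjusted p of 0.779. It was -0.19 without tetraploid replicate 2, where the unadjusted call was lost. That call was also lost without diploid replicate 1 or diploid replicate 2.

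Tubgcp2, a core subunit of the gamma-tubulin complex, was at 7.19, 7.19 and 7.05 in tetraploid cells, against 7.81, 7.16 and 7.48 in diploid cells. Diploid replicate 2 overlapped the tetraploid arrays, and the difference was -0.34 ± 0.16. It was -0.17 without diploid replicate 1 and -0.50 without diploid replicate 2. Tubgcp3, the other core subunit of the small complex, differed by 0.06 ± 0.09, with a 95% interval of -0.16 to 0.28 that settles no direction. Cdk5rap2, which activates the complex at centrosomes, differed by -0.13 ± 0.11, and Nedd1, which anchors it to centrosome and spindle, by -0.02 ± 0.08.

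Genes of centriole appendages, the centrosome linker and centriolar satellites were close to equal where they could be tested. Pcm1, the scaffold of the satellites, was at 7.37, 7.27 and 6.88 on the tetraploid arrays, against 7.29, 7.24 and 7.08 on the diploid arrays, a difference of -0.03 ± 0.13. Cep250, the linker protein C-Nap1 that ties the centrosomes of a pair together, was at 5.75, 5.89 and 5.95 in tetraploid cells, against 5.92, 5.78 and 5.94 in diploid cells, a difference of -0.02 ± 0.08. Odf2, a protein of the mother centriole's appendages, differed by -0.01 ± 0.19. Nin, the ninein of subdistal appendages, was dim and not tested, at 4.14, 4.24 and 4.21 in tetraploid cells, against 4.11, 4.10 and 4.10 in diploid cells. Cep290 and Cep164, proteins of the ciliary transition zone and of distal appendages, were dim too. Cep290 averaged 4.79 ± 0.50 in tetraploid and 4.43 ± 0.21 in diploid cells, and Cep164 averaged 4.81 ± 0.10 in tetraploid and 4.92 ± 0.04 in diploid cells (SD, n = 3 each).

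**Figure D3:**
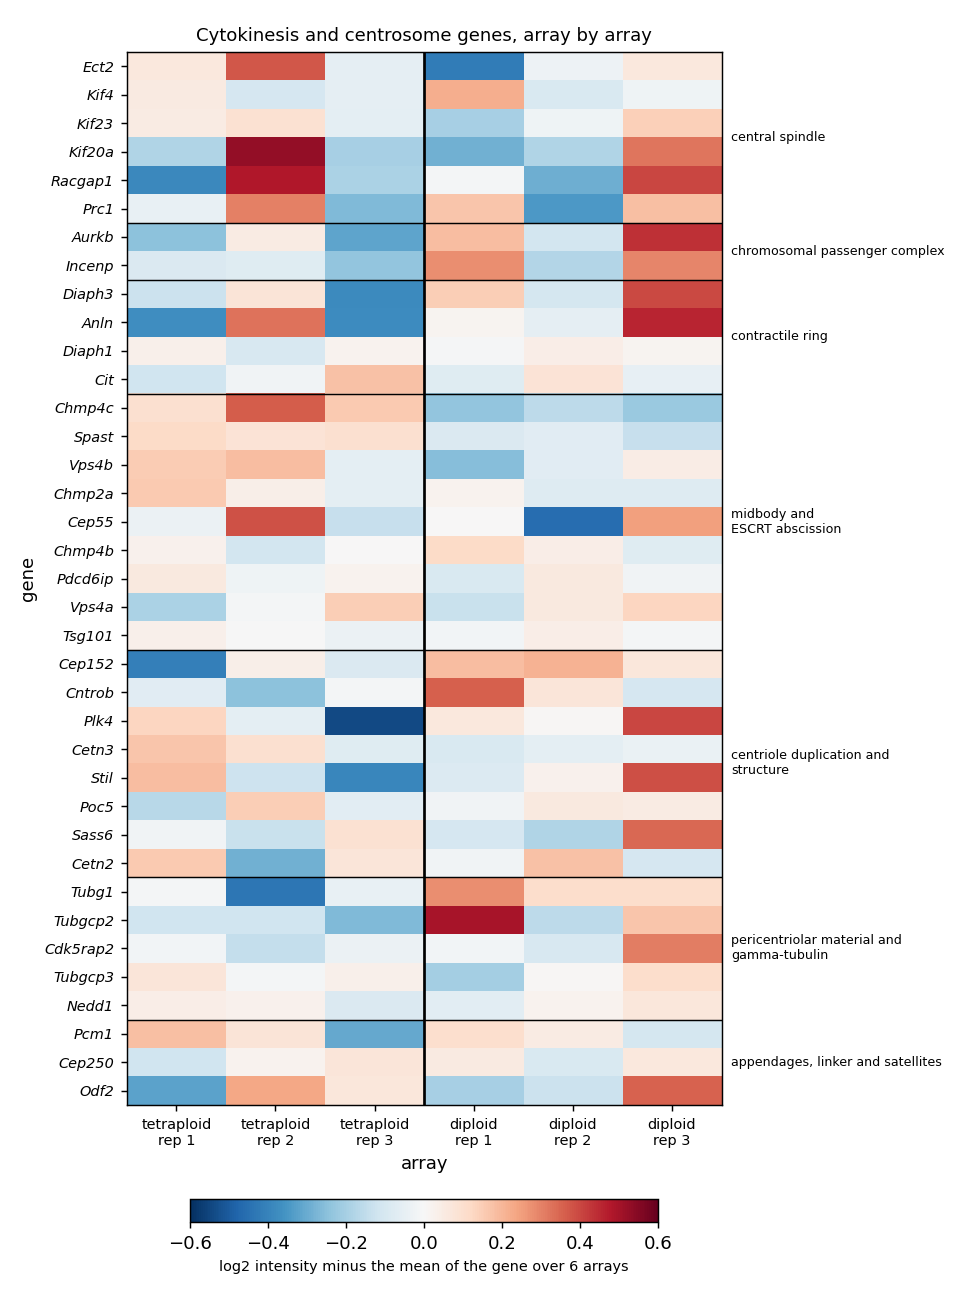
Log2 intensity of each of the 37 tested genes minus its mean over the 6 arrays (colour), with tetraploid arrays left of the line, diploid arrays right of it, and genes grouped by role. Racgap1, Kif20a, Anln, Prc1 and Cep55 are high on tetraploid replicate 2 and diploid replicate 3, while Tsg101, Pdcd6ip and Diaph1 are nearly white throughout.

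Most tested furrow genes had an SD within fractions larger than the size of their difference, such as Racgap1, at 0.41 beside -0.06. Aurkb, Incenp, Diaph3 and Ect2 were the other way, Aurkb at 0.24 beside -0.34. Over the 12 tested genes of the central spindle, the passenger complex and the contractile ring, tetraploid replicate 2 was the highest tetraploid array for 9, and diploid replicate 3 the highest diploid array for 9. Among all 9295 genes the same arrays were highest within their fraction for 31.0% and 31.1%. Of the 9 midbody and ESCRT genes, 3 were highest on tetraploid replicate 2 and 3 on diploid replicate 3. The median SD within fractions was 0.27 for central spindle genes and 0.09 for midbody and ESCRT genes, beside 0.12 for all genes.

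Genes of G2 and mitosis outside the set moved the same way from array to array. Of 39 such genes tested, 32 were highest among the tetraploid arrays on replicate 2 and 31 among the diploid arrays on replicate 3. Their mean deviation from the gene means was 0.03, 0.24 and -0.30 on tetraploid replicates 1 to 3, against 0.05, -0.26 and 0.25 on diploid replicates 1 to 3. The central spindle genes averaged -0.07, 0.28 and -0.14 on the tetraploid arrays, against -0.09, -0.16 and 0.18 on the diploid arrays. Both sets were thus high on 1 array of each fraction. In bulk RNA such as this, fewer dividing cells and less RNA per dividing cell cannot be told apart, and the part of this variation in the differences of single genes was not tested.

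Cdk1, the mitotic kinase, was at 9.05, 9.40 and 8.64 in tetraploid cells, against 9.43, 8.89 and 9.48 in diploid cells, and differed by -0.24 ± 0.22. Ccnb2, its cyclin partner, differed by 0.52 ± 0.30, and Top2a, which untangles chromosomes, by -0.53 ± 0.27. Neither the proliferation marker Mki67, at -0.12 ± 0.17, nor Foxm1, a transcription factor of late cell cycle genes, at -0.14 ± 0.09, reached an unadjusted p under 0.05 by limma. Of the 39 genes, 0 were higher and 1, or 2.56%, was lower at that level. Over all genes 2.32% were higher and 3.85% lower.

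**Figure D4:**
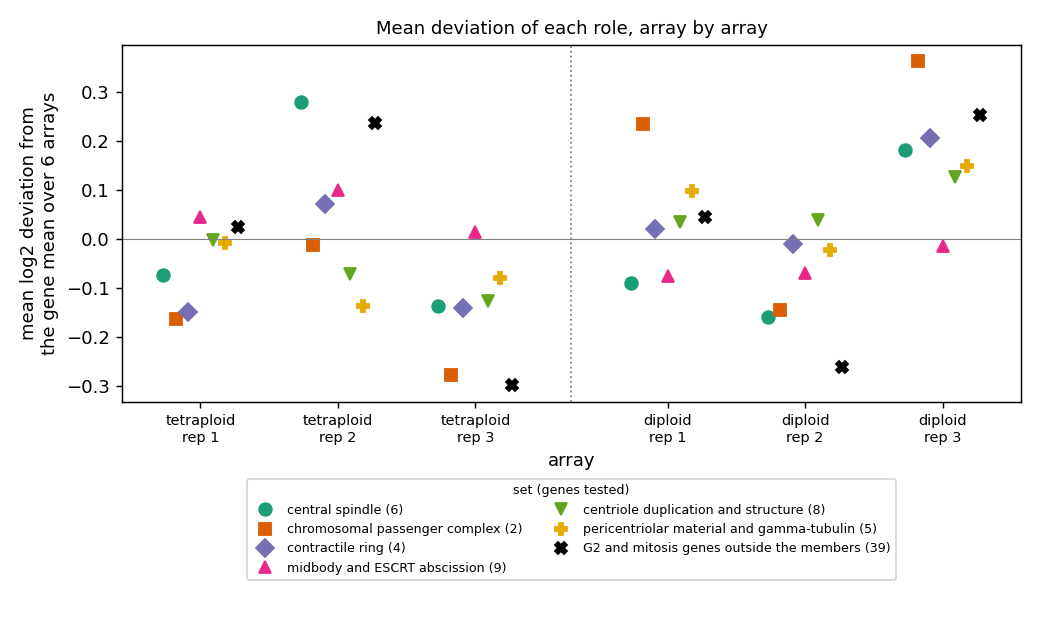
Mean over the tested genes of each role of the log2 deviation from the gene mean (vertical axis) on each of the 6 arrays, with the number of genes in the legend. Central spindle genes and the 39 G2 and mitosis genes outside the set reach 0.28 and 0.24 on tetraploid replicate 2, while the midbody and ESCRT genes stay between -0.08 and 0.10 on all arrays.

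Other genes of the same machines also gave 0 calls past the adjusted threshold. Of 49 further cytokinesis and abscission genes, among them RhoA, its kinases, septins and the remaining ESCRT subunits, 39 were tested. Higher means in tetraploid cells were seen for 22 and lower means for 17. The median difference was 0.02, and 0 were at an unadjusted p under 0.05 in either direction. The smallest p-values belonged to the ESCRT-binding protease Capn7 at 0.23 ± 0.12, the non-muscle myosin heavy chain Myh9 at -0.18 ± 0.10 and the ESCRT-II subunit Vps25 at 0.18 ± 0.10. The fractions did not overlap for 3 genes higher and 1 lower in tetraploid cells. These were 7.69% and 2.56% of the 39, beside 5.22% and 7.08% of all genes.

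Of 57 further centrosome genes, 39 were tested, and their means were higher in tetraploid cells for 14 and lower for 25, a median difference of -0.08. Haus5, a subunit of the augmin complex that branches spindle microtubules, was at 5.81, 5.76 and 5.54 in tetraploid cells, against 5.88, 5.88 and 6.12 in diploid cells, a difference of -0.26 ± 0.11. It was the 1 gene of this list at an unadjusted limma p under 0.05 and the 1 whose fractions did not overlap. Each count was 2.56% of the 39, beside 3.85% of all genes lower at that level and 7.08% lying wholly lower. The distal appendage protein Sclt1 differed by -0.20 ± 0.09 and Akap9, a centrosomal scaffold of kinases, by 0.23 ± 0.11. In both lists 0 genes passed an adjusted p of 0.05.

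The 6 arrays were much alike, with Pearson correlations across probe sets of 0.992 to 0.997 for pairs of arrays. The labelled cell type was borne out by its markers, since all 13 hepatocyte markers with a probe set were above the cutoff for dim genes and their summed intensity was 343611 to 356657 in tetraploid and 347027 to 358673 in diploid cells. Of 14 liver endothelial markers, 11 were above the cutoff, with Emcn, Pecam1 and Tek dim, and 8 of the 11 had higher means in tetraploid cells. Of the 11, 4 were higher at an unadjusted limma p under 0.05, 36.4% beside 2.32% of all genes. The share lying wholly higher in tetraploid cells was 27.3%, beside 5.22% of all genes. The summed intensity of the 14 markers was 1387 to 1637 in tetraploid and 1259 to 1434 in diploid cells. Kupffer cell markers summed to 414 to 489 in tetraploid and 460 to 516 in diploid cells, with 6 of 10 above the cutoff. Leukocyte markers, of which 2 of 10 were above the cutoff and Ptprc was dim, summed to 290 to 301 in tetraploid and 322 to 335 in diploid cells. Stellate, cholangiocyte and erythroid markers had overlapping sums. The part of these cells in the differences of the furrow, abscission and centrosome genes was not tested.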

How the data were processed

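RNA of 3 tetraploid and 3 diploid hepatocyte samples was labelled with biotin and hybridised to Affymetrix arrays, 1 per sample, per the labels' protocols. The deposited values are linear intensities, 1 for every probe set of each array. RMA, which corrects background, equalises arrays and summarises probes, is named in the submitters' processing notes. Its version is not given in the sources used here. Arrays carry no count depth, and their number limits the precision, with a median standard error of 0.10 for a log2 difference.

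The log2 of each deposited intensity was taken. Among 22690 probe sets, 20380 had 1 gene symbol, 691 several, 1555 none, and 64 were controls. The brightest probe set stood for each gene, and the 25% of genes with the lowest mean were left out. Of the 40 measured genes, 18 had several probe sets, and in 9 another probe set had the opposite sign.

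Fractions were compared with limma 3.58.1 in R 4.3.3 (lmFit, eBayes, two-sided), with no replicate block, and p-values were adjusted by Benjamini-Hochberg over 9295 genes. The procedure was tested on simulated data whose noise was independent between genes and arrays. That test does not cover variation that many genes share across arrays, as seen here. Array values are given for the 2 genes of each role with the smallest p and for a fixed set, which includes the untested Nin. The 3 genes with the smallest p of each further list and 5 mitotic genes are named, Cdk1 and Haus5 of these with array values, chosen after their values were seen. Other genes are named to account for the list. Members, lists and rules were chosen with earlier results of these data known. The labels did not state a pairing, and replicate numbers were not used to pair the samples in this comparison. Alternatives covered the filter, scaling, probe set choice, variance model, log offset, replicate block and each array left out.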

Additional observations from a re-analysis of the deposited data

How the results depend on the processing

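The count of 0 genes of the set past an adjusted p of 0.05 held under all 16 alternatives. Over all genes the count was 0, but 9 with a replicate block and 0 to 1 when single arrays were left out. The genes of the set at an unadjusted p under 0.05 were 2 higher and 2 lower. They were 1 and 1 of 23 tested with the dimmer 50% of genes left out. With all probe sets averaged they were 0 and 3 of 35 tested. With single arrays left out they were 1 to 3 and 0 to 4. Calls over all genes, in either direction, changed as well. These numbered 574 at first, 369 with the dimmer 50% left out, 636 with probe sets averaged and 378 to 639 with single arrays left out. The median difference over the set lay between -0.05 and 0.008. With the dimmer 50% left out, it was 0.04 for midbody and ESCRT genes and -0.04 for centriole genes. With single arrays left out, the medians ranged from 0.05 to 0.14 for midbody and ESCRT genes, -0.21 to -0.0077 for pericentriolar genes, -0.09 to 0.13 for central spindle genes and -0.20 to -0.08 for contractile ring genes. Among named genes, small differences changed sign. With array weights these were Prc1 (0.041) and Cep250 (0.0076), with repeated quantile normalization Cep250 (0.0034), with averaged probe sets Racgap1 (0.017), Chmp4b (0.0024), Cetn2 (0.011) and Pcm1 (0.041), and without _s_at and _x_at probe sets Chmp4b (0.059) and Cetn2 (0.060). With single arrays left out, the difference ranged from -0.13 to 0.025 for Kif4, -0.033 to 0.14 for Kif23, -0.32 to 0.12 for Racgap1, -0.17 to 0.13 for Prc1, -0.056 to 0.30 for Cep55, -0.14 to 0.12 for Sass6, -0.13 to 0.10 for Cetn2, -0.13 to 0.11 for Pcm1 and -0.066 to 0.039 for Cep250. The causes of these changes were not tested. Chmp4c was too dim to enter with the dimmer 50% left out or with probe sets averaged. Deviations of samples with the same replicate number correlated at 0.57, -0.20 and -0.20, and only replicate 1 correlated best with its own number. Tetraploid replicate 2 correlated at 0.69 with diploid replicate 3, and tetraploid replicate 3 at 0.38 with diploid replicate 2. Whether samples were paired under other numbers was not tested. The replicate block left the genes of the set at 0 past the threshold, and 2 higher and 2 lower at the unadjusted level.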
